A study of Mus musculus with 6 samples.

Results

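The BCL2 family decides whether a cell commits to death through its mitochondria, and 10 of its genes were followed in splenic NK cells that lack the RNA methyltransferase METTL3. The genes were taken by symbol from the expression table, which listed all 10 of them among its 14490 genes. They were 3 pro-survival genes (Bcl2, Bcl2l1 and Mcl1) and 7 pro-death genes (Bcl2l11, Bax, Bak1, Bid, Bbc3, Pmaip1 and Bmf). The samples were NK cells purified by flow cytometry from spleens of C57BL/6 mice, with 3 samples of Mettl3fl/fl genotype (WT) and 3 of Ncr1Cre-Mettl3fl/fl genotype (cKO), and polyadenylated RNA was sequenced. Both groups carried floxed Mettl3, and Cre was present in the cKO group alone, where the Ncr1 gene, which encodes the receptor NKp46, drives it in every cell that uses Ncr1. Loss of Mettl3 and presence of Cre therefore cannot be told apart in this design. No treatment was labelled, and the labels did not say whether a sample came from 1 mouse or several, so that p-values measure the spread between these samples, which may be technical.

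Pro-survival proteins of the family bind and restrain BAX and BAK, the effectors that open the outer mitochondrial membrane and release cytochrome c, which starts the caspase cascade. BH3-only proteins, among them BIM, PUMA, NOXA, BMF and BID, occupy the groove of the pro-survival proteins or engage the effectors directly. In NK cells the cytokine IL-15 is known to sustain MCL1 and BCL2 and to hold BIM down. METTL3 is the catalytic subunit of the complex that writes N6-methyladenosine on mRNA, a mark that influences mRNA stability and translation. The comparison of cKO with WT asked how the mRNA level of each member stood after Mettl3 was deleted. Protein, mitochondrial priming and cell death were not measured in these samples. In separate experiments at steady state, the paper found BCL2 protein and the share of apoptotic NK cells not significantly changed in cKO mice. Under IL-15, it reported poorer survival of METTL3-deficient NK cells than of WT cells.

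The deleted gene matched the labels: Mettl3 measured 1303, 1258 and 1192 normalized counts in WT and 297, 299 and 405 in cKO (log2 fold change -1.92, adjusted p = 2.32e-14). Between 55965515 and 71464042 reads fell on the listed genes of a sample, and the first principal component, with 41.5% of the variance, separated the genotypes. Of the 9 NK cell markers in the table, 2 (Tbx21 and Il2rb) were higher and 6 lower in cKO, with summed levels of 808183 to 845568 normalized counts in WT and 764603 to 800935 in cKO. Ncr1, the gene that drives Cre in cKO, was among the lower ones (log2 fold change -0.40). By the test described below, 17.8% of all genes were higher in cKO and 18.8% lower. Among markers of other cells, 7 of 8 B cell genes were higher in cKO and none lower, with a summed level of 1325 to 1347 normalized counts in WT and 1829 to 1876 in cKO. T cell markers in the table summed to 2559 to 2739 in WT and 2247 to 2465 in cKO, and 1 of 7 (Cd3g) was lower. Of the 6 genes that mark type 1 innate lymphoid cells, Il7r alone passed the test, and it was higher in cKO. Their summed level was 2029 to 2090 in WT and 2325 to 2542 in cKO. Of 5 myeloid markers in the table, Adgre1, Cd14 and Cd68 were higher in cKO and Lyz2 was lower, and their sum was 7027 to 7623 in WT and 6974 to 7786 in cKO. Erythroid markers summed to 811 to 870 in WT and 684 to 832 in cKO. Markers of immature NK cells summed to 42877 to 43896 in WT and 40484 to 43828 in cKO, and those of mature NK cells to 88063 to 90646 and 90383 to 92794, with genes of both lists called in both directions. In bulk samples, fewer cells of a type and less RNA per cell cannot be told apart.

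All 3 pro-survival members rose in METTL3-deficient NK cells, while the 7 pro-death members split, with 3 higher, 3 lower and 1 that did not pass the test. Of pro-survival genes outside the members, Bcl2a1d and Bcl2a1b were lower in cKO (log2 fold change -1.02 and -1.35) and Bcl2l2 was higher (0.20). Bcl2a1a did not pass the test. A gene was called where limma gave an adjusted p under 0.05 over all genes, and fold changes are on the scale of log2(normalized count + 1). Altogether 9 of the 10 members were called. Genotype differences were common in these cells, with 36.6% of all genes called. By direction, 17.8% of all genes were called higher in cKO, where 6 of 10 members were, and 18.8% were called lower, where 3 of 10 members were. In all 10 members the genotypes were fully apart, with every cKO sample on the same side of every WT sample, which held for 45.7% of all genes. By normalized count the members ranked between the 55.1 and 98.1 percentile, and these shares over all genes were not matched for level. The members were also chosen with earlier results of these data known, so their counts are not those of an unseen list. The exact permutation test cannot go below p = 0.1 with 3 samples against 3, and each member reached that value. The median log2 fold change was 0.15 over the pro-survival genes, 0.066 over the pro-death genes and 0.0014 over all genes, and the median size of the change regardless of direction was 0.20 over the members against 0.17 over all genes.

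**Figure D1:**
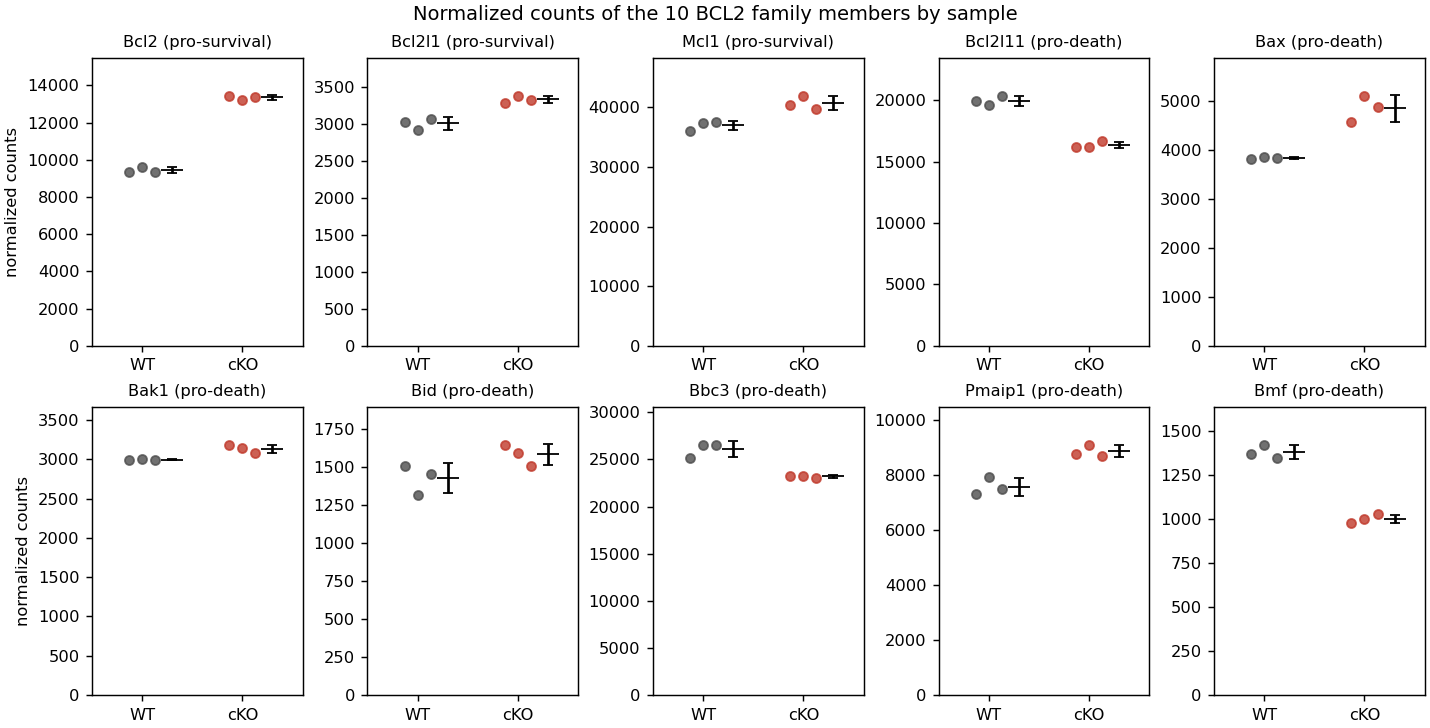
Normalized counts (vertical axes from 0) of the 10 members in each of the 3 WT samples (grey) and 3 cKO samples (red), with the mean and SD of each group in black. The groups are apart in every panel, by the widest margin for Bcl2, and the closest approach is that of Bid, where the highest WT sample stood at 1507 and the lowest cKO sample at 1508.

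Bcl2 had the largest fitted change among the members. Its product is the founding pro-survival protein of the family. Bcl2 (GRCm38 chromosome 1, 106538178 to 106714274, minus strand) measured 9368, 9623 and 9357 normalized counts in WT and 13455, 13234 and 13379 in cKO. Every cKO sample lay above every WT sample, by far more than the spread within either group. The means were 9450 ± 151 and 13356 ± 113 (SD, n = 3), a rise of 41.3% (log2 fold change 0.50, SE 0.032, adjusted p = 1.94e-12). From the same RNA-seq data the paper reported IL-15 pathway transcripts as unchanged, and its gene list for that pathway holds Bcl2. Its rule also asked for a log2 fold change beyond 1 in either direction, which Bcl2 did not reach. The summed B cell markers rose 1.38-fold, from at most 1347 to at most 1876 normalized counts, and Il7r rose from 710 to 1016. Their part in the Bcl2 difference was not tested. An annotated antisense gene, D630008O14Rik, covers 6.1% of the exonic bases of Bcl2, and counting by strand was not stated.

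The other pro-survival genes rose by smaller amounts. Bcl2l1 (chromosome 2, 152780668 to 152831728, minus strand), which encodes BCL-XL, measured 3028, 2910 and 3067 normalized counts in WT and 3284, 3378 and 3319 in cKO. The highest WT sample stayed below the lowest cKO sample. Its means were 3002 ± 81.8 and 3327 ± 47.4 (SD, n = 3), a rise of 10.8% (log2 fold change 0.15, SE 0.043, adjusted p = 0.00713). Mcl1 (chromosome 3, 95658788 to 95663176, plus strand), whose short-lived protein NK cells are known to depend on, measured 36048, 37356 and 37510 normalized counts in WT and 40362, 41948 and 39626 in cKO. It too was higher in every cKO sample, with means of 36971 ± 803 and 40645 ± 1187 (SD, n = 3), a rise of 9.94% (log2 fold change 0.14, SE 0.031, adjusted p = 0.000827). Mcl1 ranked at the 98.1 percentile of all listed genes by normalized count.

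The effectors BAX and BAK share the task of permeabilising the outer membrane, and their mRNAs moved by different amounts. Bax (chromosome 7, 45461697 to 45466898, minus strand) measured 3803, 3845 and 3825 normalized counts in WT and 4561, 5103 and 4863 in cKO. The WT samples were close together (SD 20.9, n = 3), whereas the cKO samples spread more widely (SD 272, n = 3), and all of them lay above WT. Bax rose by 26.6% (log2 fold change 0.34, SE 0.042, adjusted p = 4.06e-07), the largest rise of a pro-death member. The gene model Gm45808 covers 12.2% of its exonic bases on the same strand. Bak1 (chromosome 17, 27019810 to 27029009, minus strand) measured 2994, 2997 and 2996 normalized counts in WT and 3185, 3139 and 3085 in cKO. Its groups did not overlap, but the difference of 4.69% did not pass the test (log2 fold change 0.066, 95% confidence interval -0.021 to 0.15, adjusted p = 0.238). That interval still allows a change as large as the one fitted for Mcl1 or Bcl2l1. Scaling the samples to equal totals gave Bak1 a log2 fold change of 0.12 and an adjusted p of 0.0282, which ends the distinction from the called members. Exons of Ggnbp1 on the opposite strand overlap 18.2% of the exonic bases of Bak1, and those of a further annotated entry of Ggnbp1 overlap 7.4%. Ggnbp1 itself averaged 73.7 normalized counts in WT and 66.2 in cKO.

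Of the BH3-only genes, Bcl2l11, Bbc3 and Bmf fell. Bcl2l11 (chromosome 2, 128126038 to 128162547, plus strand) encodes BIM, which binds every main pro-survival protein. It measured 19938, 19586 and 20388 normalized counts in WT and 16187, 16215 and 16667 in cKO. All cKO samples lay well below WT, and the level decreased by 18.1% (log2 fold change -0.29, SE 0.031, adjusted p = 3.2e-08). Bbc3 (chromosome 7, 16308393 to 16318205, plus strand) encodes PUMA, a p53 target with the same broad binding. Its values were 25143, 26554 and 26562 normalized counts in WT and 23282, 23279 and 23049 in cKO. The cKO samples were nearly alike and all below WT, with means of 26086 ± 817 and 23204 ± 133 (SD, n = 3) and a log2 fold change of -0.17 (SE 0.031, adjusted p = 8.43e-05). Bmf (chromosome 2, 118528757 to 118549687, minus strand), whose product is linked to the cytoskeleton and to cytokine withdrawal, was the least abundant of these and fell most. It measured 1366, 1420 and 1344 normalized counts in WT and 978, 999 and 1024 in cKO (log2 fold change -0.46, SE 0.061, adjusted p = 9.93e-07), with a gap between the groups wider than the range of either.

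Bcl2l11 and Bbc3, which both fell, were the members whose promoter windows held the letters GTAAACA, a core to which FOXO factors bind. The windows ran from 250 bases before to 50 bases after each RefSeq gene start of GRCm38, and 16 of them belonged to 9 of the members (not Pmaip1). GTAAACA was searched on both strands and occurred in 3.65% of all 32851 windows. Shares are given per window, whereas members are counted by gene and can have several windows, so they are not directly comparable. Bmf, which also fell, had no GTAAACA in its windows. The stretches are shown 5′ to 3′ on the strand of the gene, with the matching letters in capitals. The match lay 227 bases before the start in Bcl2l11 (chr2:128125800-128125829, plus strand) and, read on the opposite strand, 167 bases before a start in Bbc3 (chr7:16310083-16310112, plus strand).
Bcl2l11: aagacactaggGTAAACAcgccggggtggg
Bbc3: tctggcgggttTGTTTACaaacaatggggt
Bax and Bmf, which moved in opposite directions, were the members with a match to the p53 half-site, which 8.36% of all windows held. Both matches read as a half-site on either strand, at 201 bases before the start of Bax (chr7:45467080-45467109, minus strand) and 213 bases before a start of Bmf (chr2:118544781-118544810, minus strand).
Bax: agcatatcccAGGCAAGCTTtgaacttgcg
Bmf: cccaagtgaaGGGCTTGCCTcttgccgaat
The ETS letters CCGGAAG, in 8.86% of all windows, matched in Bcl2l1 and Mcl1, which rose, and in Bcl2l11, which fell. The NF-kB motif, in 5.8%, matched in Bbc3, which fell, and in Bcl2l1, which rose. The STAT letters TTCNNNGAA, in 8.3%, and the CRE letters TGACGTCA, in 1.79%, matched in 0 of the 9 members with a window. Each match describes these letters in these windows, and binding was not measured in these samples. The 6 patterns were chosen after the members' values and a first search were seen.

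The remaining BH3-only genes, Pmaip1 and Bid, were higher in cKO. Pmaip1 encodes NOXA, which binds MCL1 and promotes its degradation. Its values were 7316, 7926 and 7496 normalized counts in WT and 8793, 9117 and 8700 in cKO. The lowest cKO sample was above the highest WT sample, and the rise was 17.0% (log2 fold change 0.23, SE 0.037, adjusted p = 1.69e-05). Bid (chromosome 6, 120891930 to 120916853, minus strand) encodes the link from death receptors, and it is a substrate of granzyme B. It measured 1507, 1315 and 1455 normalized counts in WT and 1647, 1595 and 1508 in cKO, so that the nearest samples of the groups almost met. Its difference passed the test only narrowly (log2 fold change 0.15, SE 0.060, adjusted p = 0.0494). Leaving out WT replicate 2, the lowest sample, gave 0.095 and an adjusted p of 0.261. The call was also lost without WT replicate 3 (adjusted p = 0.0561), without cKO replicate 1 (0.194), without cKO replicate 2 (0.105) and with a correction for GC content and length (0.0813). Exons of Bcl2l13 on the opposite strand overlap 17.7% of the exonic bases of Bid, and Bcl2l13 fell from 6000 to 5500 normalized counts.

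**Figure D2:**
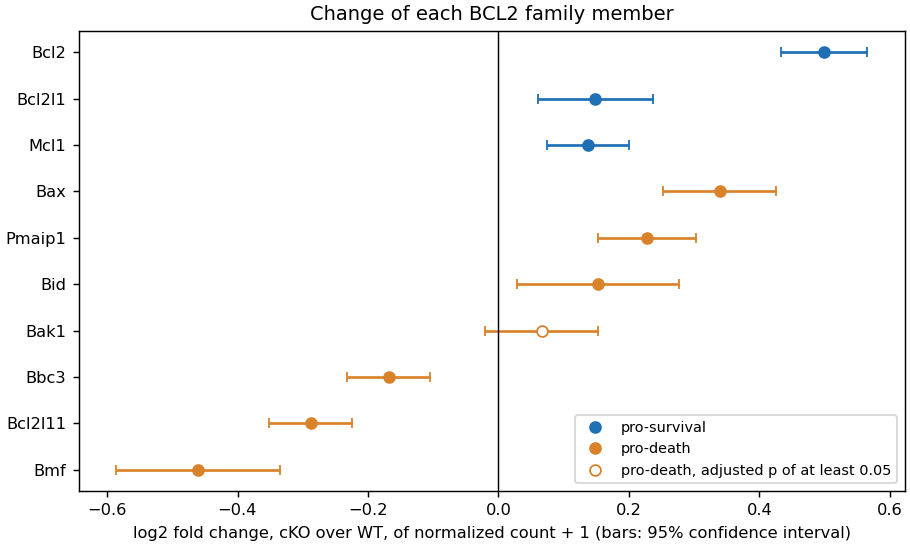
Log2 fold change (cKO over WT, horizontal axis, on normalized count + 1) of each member with its 95% confidence interval, blue for pro-survival and orange for pro-death genes, open where the adjusted p was at least 0.05. Pro-survival genes lie between 0.14 and 0.50, pro-death genes between -0.46 and 0.34, and only the interval of Bak1 includes 0.

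Levels of different genes were compared as normalized counts per kb of exon, on the union of annotated exons, and again per kb of the principal transcript, a length chosen after the data were seen. Bbc3 and Mcl1 were the most abundant members in both groups on both lengths. Per kb of exon, Bbc3 stood at 12280 ± 385 and Mcl1 at 10820 ± 235 in WT (SD, n = 3), and in cKO Mcl1 was the higher, with 11890 ± 347 against 10920 ± 62.8. This exchange depended on the length, since per kb of principal transcript Bbc3 was above Mcl1 in WT (14380 and 10820) and in cKO (12790 and 11890). Pmaip1 (2774 ± 115 per kb of exon in WT), Bcl2l11 (2487 ± 50.1) and Bax (2427 ± 13.2) came next. Per kb of principal transcript their order was turned, with Bax at 4411, Bcl2l11 at 3966 and Pmaip1 at 2779 in WT. Bax was above Bcl2l11 in cKO on both lengths (3073 ± 172 and 2037 ± 33.5 per kb of exon, 5585 and 3248 per kb of principal transcript). Bcl2 and Bak1 were lower, at 1032 and 1245 per kb of exon in WT and 1459 and 1303 in cKO. Bcl2 was below Bak1 in WT on that length alone, and per kb of principal transcript it was the higher in both groups (1314 and 1255 in WT, 1857 and 1314 in cKO). Bcl2l1 (655 per kb of exon in WT and 725 in cKO), Bid (402 and 446) and Bmf (262 and 190) ranked last, in this order, in both groups on both lengths.

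**Figure D3:**
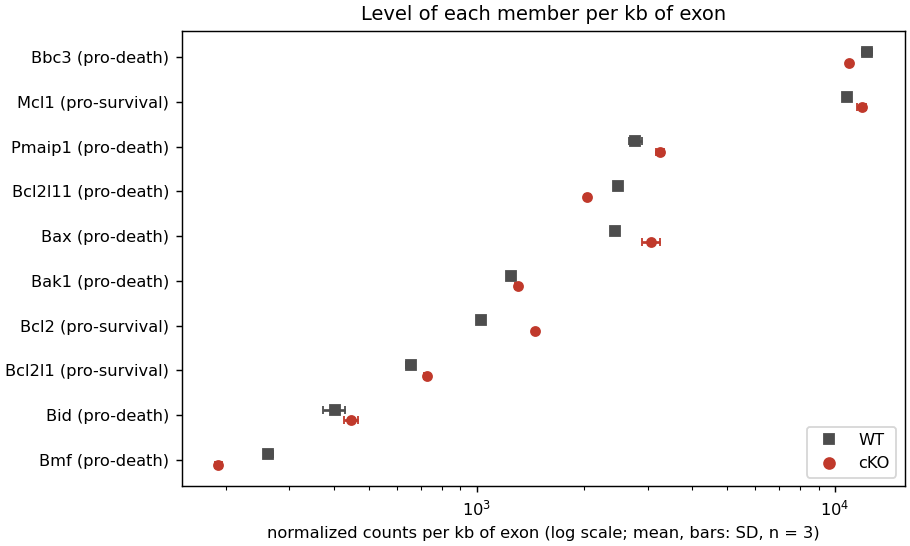
Mean level of each member in normalized counts per kb of exon (horizontal axis, log scale) in WT (grey squares) and cKO (red circles), with SD over 3 samples, sorted by the WT level. Bbc3 and Mcl1 lie far to the right of the rest and Bmf farthest to the left, while the crossings of Bbc3 with Mcl1 and of Bcl2 with Bak1 between the groups are absent per kb of principal transcript.

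Summed per kb, the pro-survival genes came to 12230, 12610 and 12660 in WT and 13990, 14450 and 13780 in cKO, an increase of 12.6%. The pro-death genes came to 21340, 22170 and 22130 in WT and 21060, 21500 and 21100 in cKO, which is lower on average, having decreased by 3.01%, with overlapping ranges. The ratio of the sums was 0.573, 0.569 and 0.572 in WT and 0.664, 0.672 and 0.653 in cKO. It was higher in each cKO sample, by 16.1% on average (15.7% per kb of principal transcript). Within the pro-death genes the parts moved apart. The BH3-only sum decreased by 7.48%, from 18210 ± 454 to 16840 ± 112 per kb, and the sum of Bax and Bak1 increased by 19.2%, from 3671 ± 13.8 to 4376 ± 163 (SD, n = 3). These sums are descriptions of mRNA and leave out what each protein binds. They are dominated by single genes, as Mcl1 made up 86.5% of the pro-survival sum and Bbc3 56.1% of the pro-death sum in WT. Only the members entered the sums, which therefore do not describe the whole family. Of the pro-survival genes left out, Bcl2a1d and Bcl2a1b were lower in cKO (log2 fold change -1.02 and -1.35). Bcl2l2 was higher (0.20), and Bcl2a1a did not pass the test. How these genes would change the ratio was not tested.

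Ratios of a pro-survival to a pro-death gene within a sample do not depend on how samples were scaled. Since gene length is not removed, their change is read and not their height. Bcl2 over Bcl2l11, the pair of a guardian and its main BH3-only partner in lymphocytes, was 0.470, 0.491 and 0.459 in WT and 0.831, 0.816 and 0.803 in cKO. Every cKO sample was far above WT, with a log2 difference of 0.79 (exact permutation p = 0.1, two-sided, the smallest possible). Bcl2 over Bax was 2.46, 2.50 and 2.45 in WT and 2.95, 2.59 and 2.75 in cKO, a log2 difference of 0.16 (exact permutation p = 0.1). Mcl1 over Pmaip1, the pair of MCL1 and its selective antagonist NOXA, went the other way, with 4.93, 4.71 and 5.004 in WT and 4.59, 4.60 and 4.56 in cKO, a log2 difference of -0.091 (exact permutation p = 0.1).

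Over all 21 such ratios, 15 were higher in every cKO sample than in any WT sample, 3 were lower in every cKO sample and 3 overlapped. Among the ratios of all pairs of listed genes, 40.1% were likewise apart between the genotypes, against the 18 here. All 7 ratios with Bcl2 in the numerator were among the 15. The lower ones were Bcl2l1 over Bax, Mcl1 over Bax and Mcl1 over Pmaip1. The overlapping ones were Bcl2l1 over Bid, Bcl2l1 over Pmaip1 and Mcl1 over Bid. The largest difference was in Bcl2 over Bmf, which was 6.86, 6.78 and 6.96 in WT and 13.8, 13.3 and 13.1 in cKO. The 21 ratios rest on 10 genes that were each apart between the genotypes, and they are not independent of one another.

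**Figure D4:**
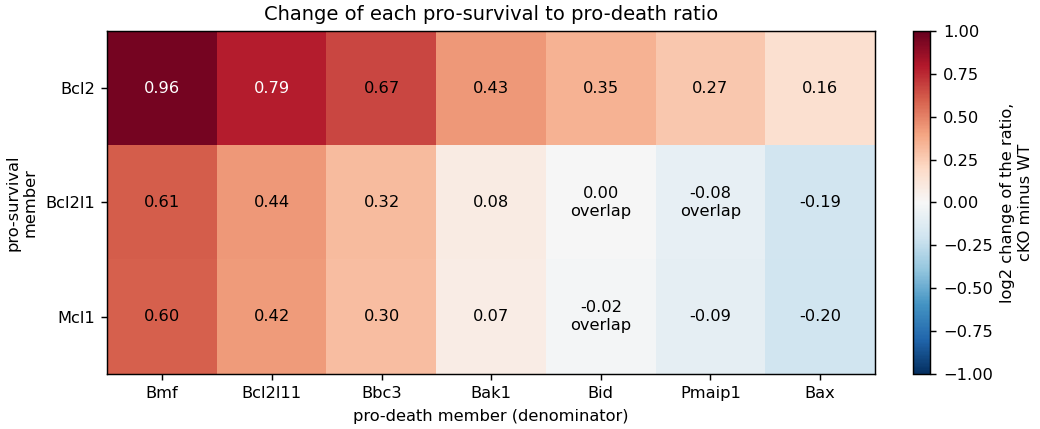
Log2 change (cKO minus WT, colour and printed value) of each of the 21 ratios of a pro-survival gene (rows) to a pro-death gene (columns), with "overlap" where the 3 cKO ratios and the 3 WT ratios overlapped. The Bcl2 row is positive throughout, from 0.16 over Bax to 0.96 over Bmf, and the Bax column is negative for Bcl2l1 and Mcl1.

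The other genes of the family did not all move with the pro-survival members. Of 18 further family genes, 11 were in the table, where 1 was higher in cKO, 4 were lower and 6 did not pass the test, with a median log2 fold change of -0.13. Over all genes, 17.8% were called higher and 18.8% lower. Bcl2l10, Bcl2a1c, Bok, Bik, Hrk, Bcl2l14 and Bcl2l15 were not listed by name and are not analysed here. The largest changes of the family were in the genes of A1, a pro-survival protein under NF-kB control. Bcl2a1d measured 964, 1086 and 1049 normalized counts in WT and 475, 519 and 528 in cKO (log2 fold change -1.02, SE 0.079, adjusted p = 7.63e-11). Bcl2a1b measured 275, 252 and 202 in WT and 92, 90 and 102 in cKO (log2 fold change -1.35, SE 0.17, adjusted p = 4.67e-07). Both were lower in every cKO sample, opposite to Bcl2, Bcl2l1 and Mcl1. The A1 genes are near-identical copies whose reads the counting could split or drop, so the value of each copy is uncertain. Bcl2a1a, with 27 to 45 normalized counts in WT and 26 to 38 in cKO, did not pass the test.

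Bcl2l2, which encodes the pro-survival protein BCL-W, measured 817, 851 and 733 normalized counts in WT and 908, 918 and 929 in cKO (log2 fold change 0.20, SE 0.073, adjusted p = 0.0323). Its call was lost without WT replicate 3 (adjusted p = 0.181) and without each of the cKO samples (adjusted p = 0.0649, 0.0674 and 0.0841). The remaining called genes, Bcl2l13 and Bnip3l, both known as receptors for the removal of mitochondria, each had a log2 fold change of -0.13, and both calls were lost when samples were scaled to equal totals (adjusted p = 0.0872 and 0.0709). Bad, a BH3-only gene that was not called, had a log2 fold change of -0.013 with a 95% confidence interval of -0.20 to 0.17.

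Downstream of BAX and BAK, all 18 listed genes of the mitochondrial pathway were in the table, with 4 higher in cKO, 5 lower and 9 that did not pass the test (median log2 fold change -0.038). For comparison, 17.8% of all genes were called higher and 18.8% lower. Birc5, which encodes survivin, a protein of dividing cells that serves chromosome segregation, measured 570, 547 and 540 normalized counts in WT and 828, 914 and 889 in cKO (log2 fold change 0.67, SE 0.078, adjusted p = 1.49e-07). Birc3, the gene of the ubiquitin ligase cIAP2, measured 29198, 29049 and 29295 in WT and 20555, 20210 and 20102 in cKO (log2 fold change -0.52, SE 0.029, adjusted p = 1.07e-13). The Birc3 groups were each within a narrow range and far apart. Casp9, the initiator caspase of the apoptosome, measured 1189, 1242 and 1048 in WT and 1284, 1497 and 1474 in cKO (log2 fold change 0.29, SE 0.070, adjusted p = 0.00167). Inhibitor of apoptosis genes thus moved in both directions, since Xiap also rose (log2 fold change 0.17) and Birc2 also fell (-0.14). The other called genes were Aifm1, which was higher, and Vdac1, Vdac3 and Cycs, which were lower. Of these 4, Vdac3 alone was called in each of the 14 alternatives tried. The apoptosome scaffold gene Apaf1 was among those that did not pass the test.

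Of 18 genes listed as regulators of the family, 17 were in the table, without Trp73, with 4 higher in cKO, 7 lower and 6 that did not pass the test (median log2 fold change 0.0028). The shares over all genes were 17.8% called higher and 18.8% called lower. Ywhaz, which encodes the 14-3-3 zeta protein known to sequester phosphorylated BAD, measured 66985, 67436 and 64416 normalized counts in WT and 47987, 50724 and 49323 in cKO (log2 fold change -0.43, SE 0.030, adjusted p = 1.85e-11). Ddit3, the gene of CHOP, a stress factor known to act on Bcl2l11, Bbc3 and Bcl2, measured 26376, 23463 and 24290 in WT and 19411, 20794 and 19670 in cKO (log2 fold change -0.31, SE 0.037, adjusted p = 2.42e-07). Foxo4 measured 6647, 6773 and 7351 in WT and 5987, 5236 and 5606 in cKO (log2 fold change -0.30, SE 0.045, adjusted p = 4.93e-06). In each of these genes all cKO samples lay below all WT samples. The FOXO genes, whose products are known activators of Bcl2l11 and Bbc3, did not move together, since Foxo1 rose by a log2 fold change of 0.24 (adjusted p = 1.27e-05) and Foxo3 by 0.17 (adjusted p = 0.000226). The remaining higher genes were Fbxw7, part of a ubiquitin ligase for MCL1 (log2 fold change 0.16), and the co-chaperone gene Bag3 (0.21), whose call was lost when any of 5 single samples was left out. Other genes listed for ubiquitin ligases of MCL1 were not called higher with Fbxw7. Btrc fell (log2 fold change -0.20, adjusted p = 0.00852), and Huwe1 (0.022) and the scarce Trim17 (-0.20) did not pass the test. Usp9x, listed for the removal of ubiquitin from MCL1, did not pass it either (log2 fold change 0.052). The remaining lower genes were Mapk8 (-0.23), Bag6 (-0.13) and Bag1 (-0.12). Trp53 did not pass the test (log2 fold change 0.057, 95% confidence interval -0.020 to 0.13, adjusted p = 0.250).

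**Figure D5:**
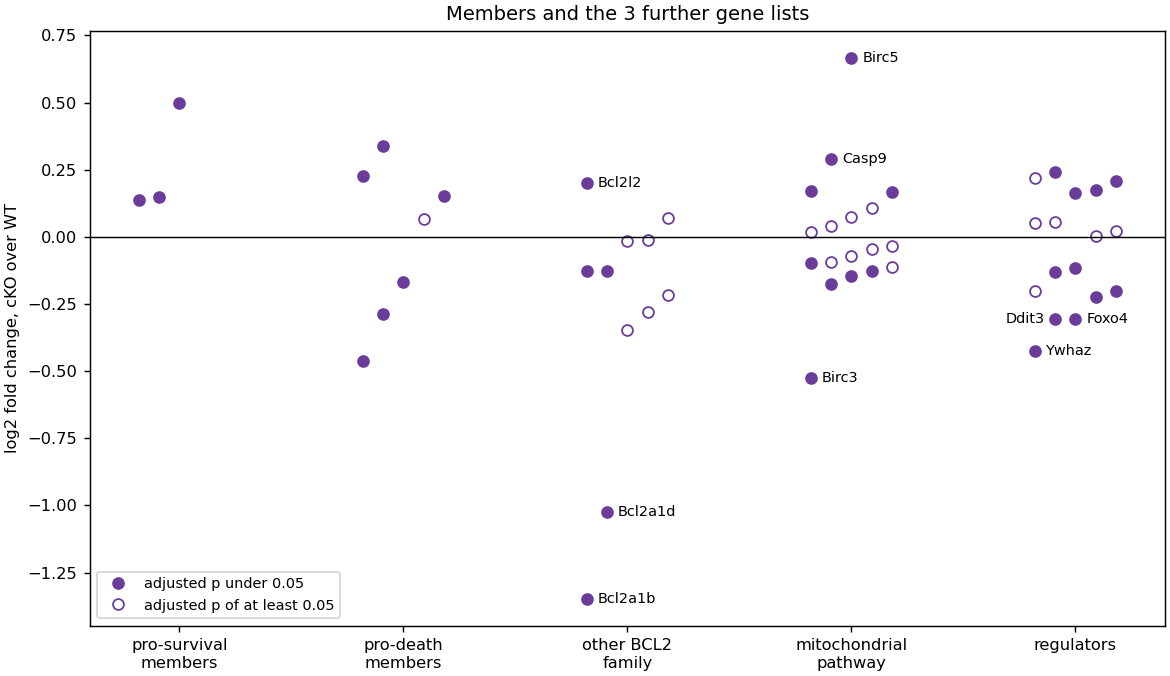
Log2 fold change (cKO over WT, vertical axis) of the pro-survival members, the pro-death members and the genes of the 3 further lists, 1 point per gene, filled where the adjusted p was under 0.05; horizontal placement within a list has no meaning. The A1 genes Bcl2a1b and Bcl2a1d lie lowest at -1.35 and -1.02, and Birc5 highest at 0.67.

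METTL3 methylates adenosine within a short consensus of which GGACT is the best known form, and the density of these letters in the principal transcript of each member (GENCODE, GRCm38) was set beside the changes. The median over 11815 listed genes was 1.05 per kb. Bax (3.46 per kb, 99.1 percentile), Bbc3 (2.76, 96.8 percentile) and Mcl1 (2.34, 93.5 percentile) had the highest densities among the members. Of these, Bax and Mcl1 rose and Bbc3 fell. The density of Bax rests on 3 copies in a transcript of 867 bases, and Bbc3 held 5 copies and Mcl1 8. By number, Bcl2 and Bmf held the most, with 9 each. Bmf (1.94), Bid (1.83), Bak1 (1.68), Bcl2 (1.25) and Bcl2l1 (1.17) were above the median, and Bcl2l11 (0.99) and Pmaip1 (0.73) were below it. For the densest genes, the copy nearest to the stop codon is shown 5′ to 3′ on the strand of the gene, with GGACT in capitals. It lay 16 bases after the stop codon in Bax (chr7:45461829-45461857, minus strand), 18 bases after it in Mcl1 (chr3:95660830-95660858, plus strand) and 51 bases before it in Bbc3 (chr7:16317169-16317197, plus strand).
Bax: tcccactgccttGGACTgtgtcttttctt
Mcl1: gagtgcaataggGGACTcttaaagctcca
Bbc3: aatctcttcatgGGACTcctccccttacc
Methylation was not measured in these samples, and the letters alone do not show that a site is used. The search was added after the members' values were seen.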

How the data were processed

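Reads of 3 WT and 3 cKO samples were aligned by the authors to GRCm38 with HISAT2 and counted per gene with featureCounts. The deposited sample columns hold a signal, which the authors made by dividing the count of a gene by the DESeq2 size factor of its sample and which is called the normalized count here. The authors also deposited the mean over samples, their log2 fold change with its standard error, a test statistic (a score) and the authors' p-value, raw and adjusted, and none of these columns was used. Reads per sample were recovered as whole multiples of the value that 1 read takes in each sample, and 100% of values were whole within 0.1 read. Groups came from the genotype labels.

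Values were taken as log2(normalized count + 1). A filter asking for 1 normalized count or more in 3 samples or more removed 0 of 14490 genes. The genotype effect was fitted with limma 3.58.1 in R 4.3.3 with a variance trend (two-sided), and Benjamini-Hochberg adjustment ran over the whole table. The fit was tested on simulated data. Lengths and overlaps came from the GENCODE annotation of GRCm38, and promoter sequences from RefSeq (GRCm38.p6). The members and lists were chosen with earlier results of these data known. All members and Mettl3 are named, and of each further list the 3 genes with the largest changes among those called and at 1 CPM or more. Other genes named from the further lists were chosen after their values were seen. Same-numbered samples did not deviate together (correlations -0.040, 0.056 and 0.038), so replicate numbers were not used as pairs.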

Additional observations from a re-analysis of the deposited data

How the results depend on the processing

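The 3 pro-survival genes, Bcl2l11, Bax, Bbc3, Pmaip1 and Bmf were called in the same direction in each of 14 alternatives (other scalings, another pseudocount, no filter, a filter at 1 CPM in 3 samples, limma-voom, a correction for GC content and length, the replicate block, and each sample left out). Since the filter removed no gene, the alternative without it repeats the main fit and adds no support. Bid was called in 9 of 14, with adjusted p from 0.0101 to 0.261, and Bak1 in 2 of 14, with equal totals (adjusted p = 0.0282) and limma-voom (0.0288). Leaving Mcl1 and Bbc3 out of the sums moved the log2 difference of the summed balance from 0.215 to 0.272. With equal totals the calls over all genes were 3487 higher and 2016 lower, against 2576 and 2731, and the median of all genes stood at 0.051. With the replicate block, 9 members were called, as without it, and 5543 genes against 5307. Same-numbered samples did not correlate over 0.1, so this pairing is a shared number only. Count tests on reads recovered from the normalized counts, and the correction for GC content together with the replicate block, were not run. Calls lost by further genes are given beside them, and Vdac1, Cycs, Aifm1 and Bag1 lost theirs in 4, 7, 4 and 2 of 14 alternatives. With 3 samples a group, a change as small as that of Bak1 (0.066) had an interval that includes 0.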
